A study of Mus musculus with 5 samples.

Results

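Ion channels and neurotransmitter receptors were read in RNA-Seq libraries of cultured mouse neural stem/progenitor cells (NSPCs). The genes were taken by symbol, from 11 symbol patterns for potassium, sodium, calcium, chloride, TRP and HCN channels and for glutamate, GABA-A and purinergic P2 receptors, a rule that reads letters only. 117 of the 12588 genes in the table matched, with 213 of its 22227 transcripts. Trpc4ap matched by its letters alone, since it encodes an adaptor of a ubiquitin ligase, so that 116 of 220 annotated protein-coding channel and receptor genes of these patterns had a row in the table used here.

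The 5 libraries came from proliferating cultures of C57BL/6J cells without treatment, grown with FGF-2 and EGF at 20 ng/ml each. 2 were labelled WT (p75NTR+/+ litter mates, numbered 1 and 4) and 3 were labelled p75NTR-/- (numbered 1, 2 and 4), after a null allele of the neurotrophin receptor gene Ngfr. The labels give E12.5 embryos as the source and the study's methods give the adult subventricular zone. The comparison of the labels asks whether channel and receptor transcripts depend on p75NTR in dividing NSPCs.

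Voltage-gated potassium, sodium and calcium channels set the excitability of neurons, whereas inward rectifier and two-pore potassium channels hold the resting potential of glia and progenitors. Ionotropic glutamate and GABA-A receptors are ligand-gated channels of synapses, and progenitors express some of them before synapses form. P2X receptors are channels opened by ATP, and P2Y and metabotropic glutamate receptors signal through G proteins.

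The libraries held 11688211 to 14452396 counts. Ngfr (chr11:95568818-95587735, GRCm38, minus strand) went against the labels, with normalized counts of 0.98 and 2.08 in WT 1 and WT 4 and of 9.89, 141 and 251 in p75NTR-/- 1, 2 and 4. Which exons the null allele lacks is not given in the sources used here, so "label" is used below where a genotype would stand. The libraries numbered 4, one under each label, were the closest pair, with a median absolute log2 difference of 0.09 over 10786 genes with a mean normalized count of at least 50, against 0.15 to 0.35 in the other pairs. Over the 82 channel and receptor genes of that level the same pair differed by 0.14 and the other pairs by 0.29 to 0.53. WT 1 also stood apart. Its 6 proliferation genes summed to 458 TPM against 1015 to 1239 TPM elsewhere. Its 7 astrocyte markers, each with a row, summed to 2107 TPM against 825 to 1385 TPM. Mki67 was not lowest in WT 1, with 4462 normalized counts against 4247 in WT 4 and 4092 in p75NTR-/- 4. The other proliferation genes were lowest in WT 1. Of the astrocyte markers, S100b, Gja1, Slc1a2 and Aldoc were highest in WT 1, and Aldh1l1, Gfap and Aqp4 were not. Gfap and Aqp4, both astrocyte genes, had normalized counts of 11.9 and 69.3 in p75NTR-/- 1 and of 1.20 and 114 in p75NTR-/- 2. These lay below the ranges of 241 to 746 and 395 to 696 in the other libraries. WT 1 was the low end of both ranges, while WT 4 had 680 and 696 and p75NTR-/- 4 had 746 and 566. The progenitor genes Nes, Sox2 and Fabp7 were read in every library, and 0 of 8 microglial markers had a row. Of 13 neuronal markers 6 had a row, without Dcx, Stmn2, Rbfox3 or Syt1. The 6 were Map2 at 817, Gad1 at 24.4, Elavl3 at 12.25, Tubb3 at 8.86, Snap25 at 5.97 and Elavl4 at 1.90 TPM. Map2 had 5401 to 9156 normalized counts, and Nes, at 133 TPM, had 8704 to 23122.5. By normalized counts Nes was thus the higher of the pair in every library but WT 1. In bulk samples, fewer cells of a type and less RNA per cell cannot be told apart.

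Channel and receptor transcripts were low as a group. Their median level per length was 3.00 TPM (the study's estimate of transcript abundance per length, scaled to the library, summed over the transcripts of a gene), against 14.6 TPM over all 12588 genes, and 38 of 117 reached 10 TPM (32.5% against 59.5% of all genes). Together they made up 0.122% to 0.145% of the listed TPM of a library. Their genes were long, with a median span of 69.7 kb against 26.0 kb over all genes, and 47 of 117 spanned over 100 kb (40.2% against 15.7%).

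The highest sums belonged to glial potassium channels and to auxiliary subunits rather than to pores of action potentials. Kcnj16, an inward rectifier subunit that pairs with the product of Kcnj10, led with 148 ± 34.04 TPM (SD, n = 5 libraries of both labels). The size of its lead rested on a listed transcript of 424 bases that took 58.3% of its TPM and 6.88% of its normalized counts, and the transcript of 3623 bases alone stood at 61.5 ± 11.7 TPM; without the short transcript the class of inward rectifiers ranked 4 of the 18 classes, at 122 TPM. Kcnj10, the main potassium channel of astroglia, followed with 56.9 ± 36.5 TPM, Kcnip3, a calcium sensor that binds A-type potassium channels, with 54.9 ± 13.7 TPM, Cacng7, an auxiliary protein of AMPA receptors, with 45.6 ± 10.4 TPM, and Grm5, a metabotropic glutamate receptor, with 44.6 ± 2.90 TPM. The levels from Kcnj10 to Grm5 lay within their spread over the libraries.

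**Figure D1:**
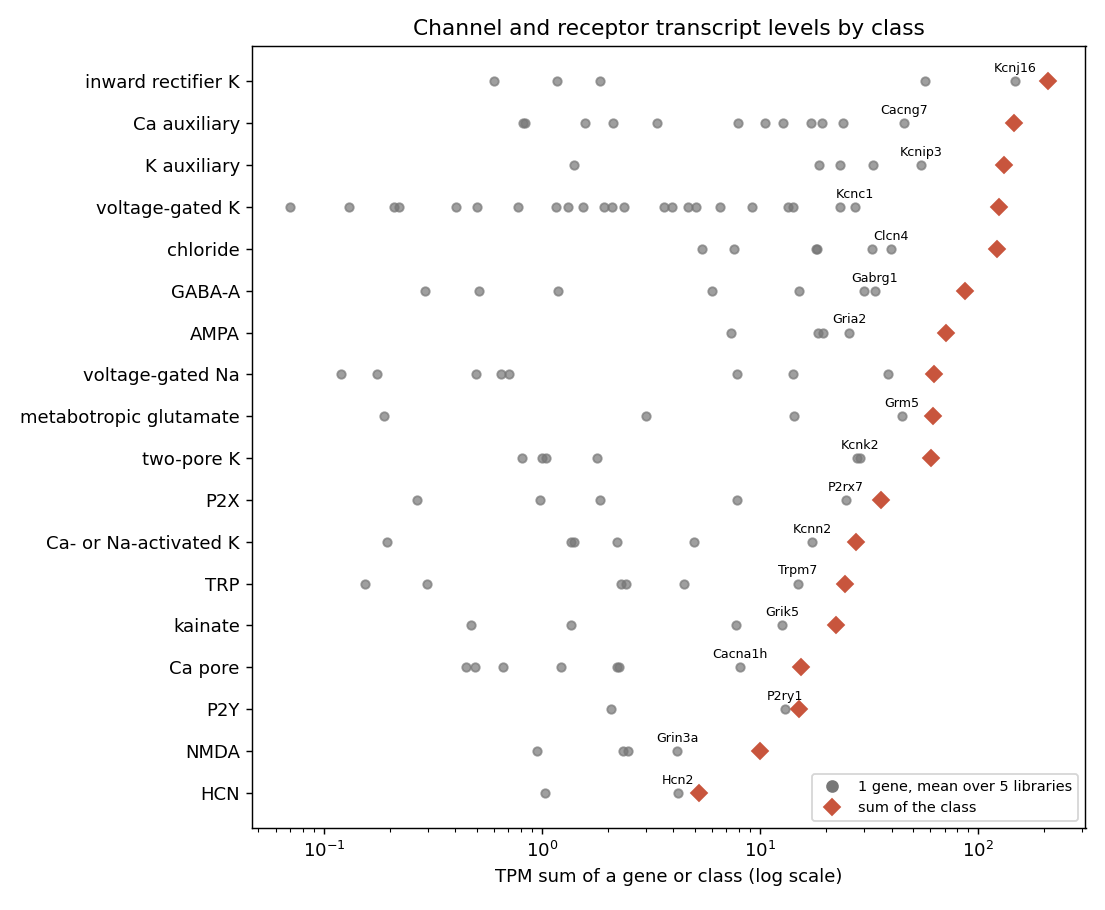
Level of every channel and receptor gene by class, as TPM sums on a log axis, with a grey point for the mean of 1 gene over 5 libraries, the highest gene of 17 classes named, and a diamond for the sum of the class. Class sums run from 5.22 TPM for HCN channels to 208 TPM for inward rectifiers, of which Kcnj16 holds 70.9%.

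Of 40 annotated voltage-gated potassium channel genes 23 had a row, with a class sum of 124 ± 22.1 TPM. Its highest members were Kcnc1, a channel of fast repolarization, at 27.3 ± 11.6 TPM, Kcnd3, an A-type channel, at 23.2 ± 3.27 TPM, and Kcna2, a delayed rectifier, at 14.2 TPM. In 2-pore channels, Kcnk2 and Kcnk1 stood at 28.6 ± 8.87 and 27.7 ± 13.7 TPM, and the other 4 of the 6 members at 0.81 to 1.78 TPM, the highest of them Kcnk10. Of 15 inward rectifier genes 5 had a row, and the 3 beside Kcnj16 and Kcnj10 stood at 0.60 to 1.84 TPM, with Kcnj4 the highest of them. Calcium- or sodium-activated channels summed to 27.5 ± 18.8 TPM, with Kcnn2 at 17.4 ± 19.3, Kcnma1, the large-conductance channel, at 4.99 and Kcnn3 at 2.21 TPM. Beside Kcnip3, the auxiliary genes Kcnmb4 and Kcnab2 stood at 33.1 ± 11.4 and 23.3 ± 9.31 TPM.

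Among genes named as calcium channel subunits, the auxiliary genes had a higher TPM sum than the pores. The sodium channel genes summed to 62.7 ± 18.4 TPM, with Scn8a, a pore of neuronal axons, at 14.1 TPM and Scn3b, a beta subunit, at 7.83 TPM. Scn2a, Scn3a, Scn7a and Scn11a, which encode pore subunits or a related channel, lay at 0.12 to 0.71 TPM. Calcium channel pores summed to 15.3 ± 1.63 TPM, of which Cacna1h, a T-type channel, made up 52.6% and Cacna1e and Cacna1a 2.25 and 2.20 TPM, whereas the 12 auxiliary genes summed to 146 ± 4.37 TPM, with Cacng7 at 45.6, Cacng8 at 23.9 and Cacng4 at 19.1 TPM. Cacng4, Cacng5 (10.5 TPM), Cacng7 and Cacng8 are named as calcium channel subunits and serve AMPA receptors as auxiliary proteins. The 146 TPM is thus not a level of calcium channel subunits alone. By normalized counts the difference was smaller, with mean class sums of 3801 for the auxiliary genes and 2106 for the pores.

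All 4 AMPA receptor genes had a row and summed to 70.8 ± 11.5 TPM, above the kainate receptor genes (22.2 ± 4.08 TPM, 4 of 5 genes) and the NMDA receptor genes (9.95 ± 2.24 TPM, 4 of 7). Gria2, whose subunit limits calcium entry through AMPA receptors, stood at 25.6 ± 6.17, Gria3 at 19.4 ± 1.75, Gria1 at 18.4 ± 8.81 and Gria4 at 7.35 ± 2.59 TPM. Grin1, the obligatory NMDA subunit, stood at 2.35 TPM, Grin3a, an unusual subunit that lowers calcium entry, at 4.17 ± 2.07 TPM and Grin2c at 2.48 TPM. Grin3a was the highest of these 3 in 4 libraries and the lowest in p75NTR-/- 4, at 1.69 TPM against 2.58 for Grin1 and 1.99 for Grin2c. Grin2b had no row in the table used here. Among kainate receptors Grik5, a high-affinity subunit that needs a partner, was highest at 12.6 ± 1.53 TPM, with Grik2 at 7.75 and Grik4 at 1.35 TPM.

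AMPA receptor transcripts come in 2 alternative forms, flip and flop, which carry one or the other of neighbouring exons of 115 bases. With most subunits, flip receptors desensitize more slowly, and flip prevails in the immature brain. The exons are shown for Gria1 and Gria2, since the 2 genes differed in their use; each is given 5′ to 3′ on the transcribed strand, with capitals where flip and flop of a gene differ (36 bases in each gene, with 79 identical). They lie at chr11:57310608-57310722 (Gria1 flip), chr11:57309769-57309883 (Gria1 flop), chr3:80690404-80690518 (Gria2 flip) and chr3:80691320-80691434 (Gria2 flop) in GRCm38, all coding, Gria1 on the plus and Gria2 on the minus strand.
Gria1 flip: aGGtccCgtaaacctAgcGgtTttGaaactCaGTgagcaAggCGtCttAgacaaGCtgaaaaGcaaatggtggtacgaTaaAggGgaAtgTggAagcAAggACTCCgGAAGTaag
Gria1 flop: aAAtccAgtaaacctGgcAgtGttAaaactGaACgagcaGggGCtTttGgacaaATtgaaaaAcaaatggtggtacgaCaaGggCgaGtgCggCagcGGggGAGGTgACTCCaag
Gria2 flip: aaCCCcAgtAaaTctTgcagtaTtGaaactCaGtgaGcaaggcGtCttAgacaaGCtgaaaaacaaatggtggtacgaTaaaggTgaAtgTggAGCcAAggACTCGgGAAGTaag
Gria2 flop: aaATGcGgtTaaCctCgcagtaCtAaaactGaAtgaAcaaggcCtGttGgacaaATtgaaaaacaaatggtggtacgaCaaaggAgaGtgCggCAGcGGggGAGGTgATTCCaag

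Flip was the main form of Gria1 and Gria3 in every library, and Gria2 held both. The Gria1 flip transcript (ENSMUST00000036315) had normalized counts of 1153 and 1653 in WT 1 and 4 and of 710, 430 and 1689 in p75NTR-/- 1, 2 and 4. The flop transcript (ENSMUST00000094179) had 70.7 and 39.5, and 24.7, 16.8 and 14.8. Flip thus took 96.8% ± 1.81 (SD, n = 5) of the TPM of both forms of Gria1, 97.9% ± 1.2 of those of Gria3 and 66.2% ± 3.47 of those of Gria2. The Gria3 flop transcript was at 0 in p75NTR-/- 4, which allows up to 3 counts.

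The flip share of Gria2 lay between 61.6% and 71.3% and did not reach the lowest share of Gria1, 94.2%, in any library. Between the labels the share differed by 1.42 percentage points in Gria1, -0.53 in Gria2 and 1.01 in Gria3 (p75NTR-/- minus WT), with exact two-sided permutation p = 0.6, 0.8 and 0.6 and adjusted p = 0.8 for each of the 3 genes, where 3 against 2 libraries can give no p below 0.1. A further Gria2 transcript (ENSMUST00000192463) that carries both exons and is annotated for decay was left out of these shares. Reads of shared exons were apportioned to transcripts by the quantification, so that the shares are estimates.

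**Figure D2:**
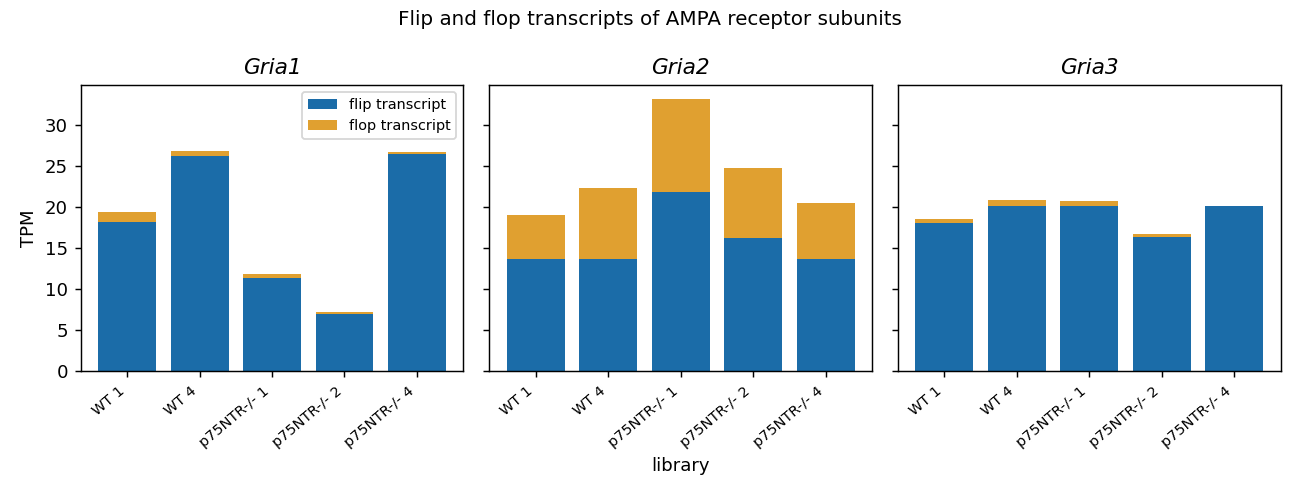
TPM of the flip (blue) and flop (orange) transcripts of Gria1, Gria2 and Gria3 in each of the 5 libraries, stacked, 1 bar per library. Flop is a thin rim in Gria1 (mean 0.532 TPM) and Gria3 (0.404 TPM) and a broad part of Gria2 (8.17 TPM).

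Metabotropic glutamate receptors were steady over the libraries. Grm5 had normalized counts of 3433, 3100, 3548, 3250 and 3123 in WT 1, WT 4 and p75NTR-/- 1, 2 and 4, and the highest and lowest library differed by under 1.5-fold. Grm3 followed at 14.3 ± 2.03 TPM.

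Of 15 annotated GABA-A receptor genes 7 had a row, and 4 of them form a cluster. Gabrg1, Gabra2, Gabra4 and Gabrb1 lie in a row at chr5:70751047-72149037. Within the cluster the levels were far apart, at 33.5 TPM for Gabrg1, 29.98 for Gabra2, 5.99 for Gabra4 and 1.18 for Gabrb1. Gabrg3 and Gabra5, neighbours on chromosome 7, stood at 0.51 and 0.29 TPM.

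Of the chloride channel genes 6 of 7 had a row. The endosomal exchangers Clcn4 and Clcn3 stood at 39.9 ± 6.29 and 32.7 ± 7.91 TPM, and the endosomal Clcn6 at 18.3 TPM. A transcript of Clcn4 annotated for decay (ENSMUST00000211574) took 30.6% of its TPM and 0.94% of its normalized counts, and without it Clcn4 stood at 27.7 TPM, below Clcn3. TRP channels were sparse, with 6 of 21 genes, and Trpm7, a channel fused to a kinase, made up 60.6% of their sum of 24.6 TPM, with Trpc1 at 4.49 and Trpm4 at 2.43 TPM. The levels of Trpm4, Scn3b and Scn8a rested in part on short transcripts, as that of Kcnj16 did. P2rx7, the ATP receptor with a large pore, stood at 24.7 ± 4.59 TPM and P2ry1, an ADP receptor of progenitors and astrocytes, at 13.03 ± 2.41 TPM. P2rx4, P2rx6 and P2ry2 lay at 7.82, 1.84 and 2.06 TPM. HCN channels, which carry pacemaker currents, had 2 of 4 genes and the lowest class sum, 5.22 ± 1.87 TPM, of which Hcn2 made up 4.19 and Hcn3 1.03 TPM.

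No channel or receptor gene passed the threshold between the labels. The test was limma on log2(normalized count + 1) over all genes, and a gene was called at an adjusted p under 0.05 where its mean reached 50 and its fold change 1.5; 0 of 117 were called against 0.00794% of all genes (1 of 12588). At an unadjusted p under 0.05 there were 2 of 117, against 2.08% of all genes, and by edgeR and DESeq2 on the counts of 4 libraries there were also 0 calls, with 0 and 2 genes at an unadjusted p under 0.05. Leaving out WT 4 or p75NTR-/- 4 brought the limma count at an unadjusted p under 0.05 to 17 and 16, with 13.97% and 10.9% of all genes. The 2 genes by limma were chosen after their values were seen and lie under the mean of 50. They were Kcnk5, a pH-sensitive 2-pore channel, with 7.85 and 14.6 normalized counts under the WT label and 47.5, 39.6 and 22.2 under the p75NTR-/- label (log2 fold change 1.61, limma adjusted p = 0.934), and Kcnh7, an ERG-type channel, with 38.3 and 18.7 against 8.91, 15.6 and 11.6 (-1.12, limma adjusted p = 0.934).

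The fold changes lay on both sides of 0, with more genes below it. The median log2 fold change of the 117 genes was -0.08, with 48 above and 69 below 0. Over all genes it was 0.00, with 6379 above and 6207 below 0. The difference in these splits was not tested. Of the 82 with a mean of at least 50, the labels did not overlap in 7 (8.54%, against 14.7% of all genes of that level). Kcnc4, Grin1 and P2rx7 were higher in each library labelled p75NTR-/- (3 of 82, against 7.76% of all), and Cacna1d, Cacng7, Grik5 and P2rx4 were lower (4 of 82, against 6.96%). Grin1 had 109 and 127 normalized counts under the WT label and 142, 171 and 157 under the p75NTR-/- label, and Cacng7 had 928 and 668 against 516, 593 and 639.

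Among the 82 genes with a mean of at least 50, 1 library stood apart in several of the 10 largest differences between the labels. Kcnn2, a small-conductance calcium-activated potassium channel, had 1881 normalized counts in WT 1 and 293 in WT 4, against 306, 314 and 337 in p75NTR-/- 1, 2 and 4 (log2 fold change -1.22 ± 0.79 SE, limma adjusted p = 0.934). WT 1 was high in both listed transcripts, at 1312 and 569, and without it the log2 fold change was 0.12. Kcnj10 had 2784 and 955 against 664, 1346 and 867 (-0.83 ± 0.55, limma adjusted p = 0.934), again with WT 1 on top, the library with the highest astrocyte and lowest proliferation sums, and at -0.056 without it; the part of these in the result was not tested.

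Kcnc4, a fast voltage-gated channel, had the highest log2 fold change of the 82 genes, with 104 and 155 normalized counts against 384, 245 and 163 (0.96 ± 0.42, limma adjusted p = 0.934). Its labels did not overlap, but WT 4 and p75NTR-/- 4 differed by 0.07 on the log2 scale and WT 1 and p75NTR-/- 1 by 1.87. Kcna6, a delayed rectifier, had 102 and 80.1 against 20.8, 38.4 and 96.1 (-1.07 ± 0.65), so that p75NTR-/- 4 lay with the WT label. Gria1 had 1224 and 1693 against 735, 447 and 1704 (-0.80 ± 0.60), and Gfap and Aqp4 were likewise low in p75NTR-/- 1 and 2 alone; their part in the result was not tested. For Kcna3, Kcnt1, Grm4, Cacng8 and Scn2a the log2 fold changes were 0.73, -0.65, -0.63, 0.52 and -0.51, each with a limma adjusted p of 0.934. Without WT 1 they were 0.47, -0.41, -0.13, -0.053 and -0.22.

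**Figure D3:**
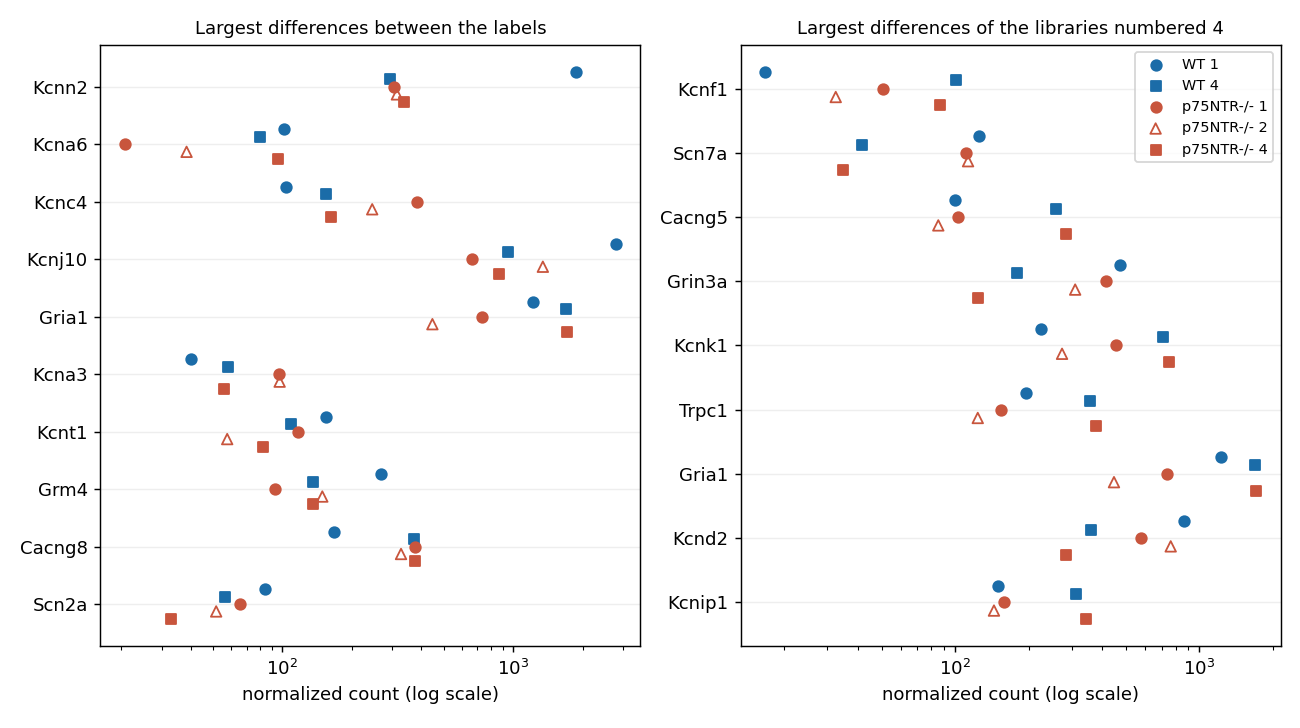
Normalized counts on a log axis of the 10 genes with the largest log2 fold change between the labels (left), among the 82 with a mean of at least 50, and 9 of the 10 with the largest difference of the libraries numbered 4 (right), 1 mark per library, blue for the WT label, red for p75NTR-/-, squares for number 4. On the left Kcnn2 is 1881 in WT 1 and 293 to 337 elsewhere; on the right the squares of both labels lie together, apart from the other marks.

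Single libraries stood over 2-fold apart from the median of the other 4 in few genes. WT 1 lay above in 3 of 82, Kcnn2, Kcnj10 and Kcnq3 (3.43% of all genes of that level), and below in 5 (4.31% of all), among them Cacng8, an auxiliary protein of AMPA receptors, with 167 normalized counts against 327 to 377 elsewhere. p75NTR-/- 1 lay above in 3 (1.21% of all), Cacna2d3, Kcnc1 and Kcnc4. Cacna2d3, an auxiliary calcium channel subunit, had 2151 normalized counts there and 868 to 1252 elsewhere, and Kcnc1 had 1128 there and 442 to 806 elsewhere. p75NTR-/- 2 lay below in 6 (2.26% of all), among them Gria1 and Gria4. Gria4 had 183 normalized counts there and 367 to 506 elsewhere, whereas Gria3 lay between 1026 and 1302 in the 5 libraries. In the other direction, p75NTR-/- 1 lay below in Cacna1c, Grik4 and Kcna6, and p75NTR-/- 2 above in Cacna1c. WT 4 and p75NTR-/- 4 also stood over 2-fold apart in several genes, both above in Cacng5, Kcnf1, Kcnip1, Kcnk1 and Trpc1 and both below in Scn7a. No share over all genes was computed for these.

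Differences over 1.5-fold within number 1 seldom recurred within number 4, in these genes as in all genes. WT 1 and p75NTR-/- 1 differed by over 1.5-fold in 32 of the 82 genes (28.9% of all genes of that level), WT 4 and p75NTR-/- 4 in 1 (1.56% of all), and 0 did so in both in 1 direction (0.473% of all). The gene was Scn2a, with 56.2 in WT 4 and 32.8 in p75NTR-/- 4. The direction was the same within both numbers in 36 of 82 genes (43.9%, against 44.8% of all genes of that level).

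The libraries numbered 4 were the larger contrast. This split is a description without a test, since it was taken up with earlier results of these data known. Of the 82 genes, 44 did not overlap between the libraries numbered 4 and the other 3 (53.7%, against 45% of all genes of that level), 21 higher (25.6%, against 23% of all) and 23 lower (28%, against 22%). In 12 the difference was also over 2-fold (14.6%, against 5.12% of all genes).

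Among the genes higher in the libraries numbered 4, Kcnf1, a silent subunit that modifies other voltage-gated channels, had 101 and 86.6 normalized counts in WT 4 and p75NTR-/- 4 and 16.7, 50.5 and 32.4 in WT 1 and p75NTR-/- 1 and 2 (3.03-fold). Cacng5 had 259 and 283 against 100, 103 and 85.3 (2.81-fold). Its neighbour Cacng4, 80048 bases away on chromosome 11, had 354 and 347 against 276, 274 and 401, and its groups overlapped. Kcnk1 had 708 and 752 against 224, 454 and 274 (2.40-fold), and Trpc1, a subunit of receptor-operated cation channels, 358 and 377 against 195, 153 and 124 (2.37-fold). Both groups kept apart in each of these genes but Cacng4.

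Gria1 belonged to the same side, at 2.30-fold. It had 1693 and 1704 against 1224, 735 and 447, so that its difference between the numbers, 1.20 on the log2 scale, was larger than that between its labels. Hcn2 had 236 and 231 against 147, 97.0 and 112, at 1.99-fold.

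Lower in the libraries numbered 4 were Scn7a, a sodium-sensing relative of the sodium channels, with 41.6 and 34.9 normalized counts against 125, 111 and 113 (2.99-fold), and Grin3a, with 179 and 124 against 472, 413 and 310 (2.63-fold). Scn2a and Scn3a, on the same stretch of chromosome 2 as Scn7a, had 56.2 and 32.8 against 84.4, 65.3 and 51.7, and 5.20 and 5.28 against 23.6, 32.7 and 54.1. Only Scn2a overlapped between the groups.

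The A-type channel gene Kcnd2 had 361 and 284 normalized counts in WT 4 and p75NTR-/- 4 against 863, 576 and 763 in the other 3 (2.25-fold lower), and Kcnd3 had 888 and 804 against 1013, 1124 and 1054. Kcnip1 had 313 and 344 against 149, 158 and 144 (2.17-fold higher), and Kcnip3 1152 and 994 against 733, 632 and 716. Kcnip1 and Kcnip3 encode calcium sensors that bind such channels.

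**Figure D4:**
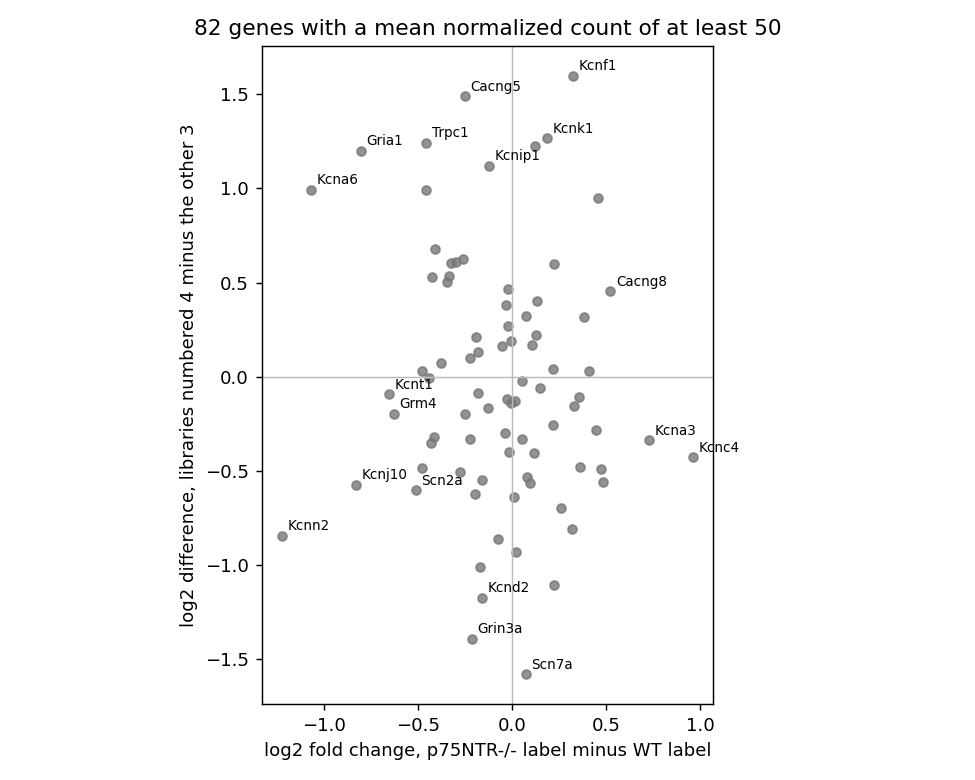
Log2 fold change between the labels (horizontal) against the log2 difference of the libraries numbered 4 from the other 3 (vertical) for the 82 genes with a mean normalized count of at least 50, 1 point per gene, with the 10 largest of the horizontal and 9 of the 10 largest of the vertical axis named. Both axes use the same 5 libraries, and the points spread wider vertically, from -1.58 for Scn7a to 1.60 for Kcnf1, than horizontally, from -1.22 for Kcnn2 to 0.96 for Kcnc4.

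Cacna1c and Cacna2d1 have transcripts in the study's lists by fold change, which were chosen on these libraries. Of these transcripts, only ENSMUST00000189389 of Cacna1c has an adjusted p under 0.05 in the study's own comparison. ENSMUST00000219833 of Cacna1c and ENSMUST00000039370 of Cacna2d1 lie above it there. Cacna1c, the pore of the main L-type calcium channel, had 232 and 131 normalized counts under the WT label and 83.1, 296 and 120 under the p75NTR-/- label (log2 fold change -0.28 ± 0.60, limma adjusted p = 0.959, and above 0 without WT 1, at 0.13, or without p75NTR-/- 1, at 0.11). Its counts were divided among 8 listed transcripts, and which of them were at 0 changed from library to library. ENSMUST00000219833 had 0 in both WT libraries and 20.8, 30.03 and 20.1 in p75NTR-/- 1, 2 and 4, at least 7.79-fold higher when 3 counts per WT library are allowed. It was 1 of 31 transcripts with a limma adjusted p under 0.05 over 22227 (0.139%, limma adjusted p = 0.0271), under the mean of 50.

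This transcript has no exonic base that is not also in another annotated Cacna1c transcript, so that its level depends on how reads were apportioned. ENSMUST00000189389, likewise without a base of its own, had 57.7 in p75NTR-/- 2 and 0 in the other libraries (limma adjusted p = 0.962). Cacna2d1, an auxiliary subunit that brings calcium channels to the membrane, had 572 and 442 against 563, 484 and 432 as a gene (-0.04 ± 0.21, limma adjusted p = 0.985, and 0.15 without WT 1). Its transcript ENSMUST00000039370, with 57 bases of its own, had 18.7 in WT 4 and 0 elsewhere.

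Other genes of these systems gave no call either. Of 41 channels and receptors outside the symbol patterns 35 had a row, 0 were called in either direction by limma and 1 had an unadjusted p under 0.05, against 2.08% of all genes. Their median log2 fold change was -0.15, with 10 above and 25 below 0, beside 6379 above and 6207 below over all genes. Gabbr1, a subunit of the GABA-B receptor, had 3096 and 3240 normalized counts under the WT label and 887, 1173 and 3159 under the p75NTR-/- label, so that p75NTR-/- 1 and 2 alone were low, as for Gria1. Among 26 scaffolds and auxiliary proteins of receptors 23 had a row and 0 were called, with a median log2 fold change of -0.03. Of 10 genes of the REST complex, a repressor of neuronal genes outside neurons, all had a row, 0 were called and the median was -0.04, with Rest at 441 and 513 against 386, 364 and 469 normalized counts.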

How the data were processed

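RNA of 5 cultures was made into stranded mRNA libraries from 500 ng each. The authors quantified reads with Salmon 0.10.2 with Ensembl transcripts of GRCm38.p6 as reference and normalized with DESeq2 1.22.0 in R 3.6.1, per the labels. Each deposited signal is a count divided by a size factor of the library, plus 0.5; taking off 0.5 left whole counts in 100% of low values (tolerance 0.02). The deposited TPM score is the authors' estimate per transcript. The authors' own baseMean, log2 fold change, p-value and adjusted p-value columns hold their comparison and were not read.

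Of 22530 lines 303 repeated a transcript and were dropped. Normalized counts and TPM were summed per symbol (12588). The labels were compared with limma 3.58.1 (lmFit, eBayes, Benjamini-Hochberg over all symbols). edgeR 4.0.16 and DESeq2 1.42.0 were run on recovered counts of 4 libraries, without p75NTR-/- 2, whose column failed the test for whole counts before 0.5 was taken off. In data simulated for this comparison over 12588 genes, limma called 0, 0, 14 and 48 of 50 genes changed 1.5-, 2-, 4- and 16-fold. The simulated libraries were drawn independently with a difference by label only. They lacked the closeness of the libraries numbered 4, so that these counts may not hold for the real libraries. Members and lists were chosen with earlier results of these data known. Genes were named by rule: the 3 highest per class, those past the threshold, the 10 largest differences between labels and between numbers, Cacna1c, Cacna2d1 and non-channels; Kcnk5, Kcnh7 and others used as neighbours or partners were added afterwards. Positions are from GENCODE M21. Cultures were named independent preparations in the study; no source used here says what the replicate numbers share, and with 2 shared numbers they do not pair the samples. WT 4 and p75NTR-/- 4 differed by more than counting noise (mean chi-square per gene 4.57). P-values measure the spread between 5 libraries. 0 sample columns were unused. Some members are not reported by name here. TPM depth is read from the counts.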

Additional observations from a re-analysis of the deposited data

How the results depend on the processing

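In each of 16 alternatives 0 members passed the threshold between the labels, and the median log2 fold change stayed between -0.12 and -0.03. Members at an unadjusted p under 0.05 numbered 2, 1 with limma's trend, 6 with single transcripts, 0 with edgeR, and 2 to 17 when 1 library was left out: 17 without WT 4 and 16 without p75NTR-/- 4, where 13.97% and 10.9% of all genes also passed. With numbers 1 and 4 as a replicate block there were 2 at an unadjusted p under 0.05 and 0 past the threshold, with a median log2 fold change of -0.03; the deviations of same-numbered libraries from their label means correlated at 0.26 (number 1) and 0.48 (number 4) over genes. Members whose labels did not overlap numbered 7, 13 over all members, and 10 to 46 with 1 library left out; fewer libraries make an overlap rarer. Inward rectifiers ranked 1 by TPM, 6 by normalized counts and, in an alternative added after seeing the data, 4 at 122 TPM without the short Kcnj16 transcript. The Clcn4 level without its decay transcript was likewise added after seeing the data. With 1 library left out, the log2 fold change ran from -2.56 to 0.12 for Kcnn2, -0.053 to 1.10 for Cacng8, -0.79 to 0.13 for Cacna1c, -0.22 to 0.15 for Cacna2d1, -1.60 to -0.056 for Kcnj10, -1.12 to -0.13 for Grm4, -0.80 to -0.22 for Scn2a, -1.33 to -0.36 for Gria1, -1.64 to -0.56 for Kcna6, -0.90 to -0.40 for Kcnt1, 0.65 to 1.27 for Kcnc4 and 0.47 to 0.99 for Kcna3. Of 156 values of 12 named genes under alternatives 6 changed sign, all without WT 1, p75NTR-/- 1 or p75NTR-/- 4, and 0 passed an adjusted p under 0.05. With 5 libraries, changes under about 4-fold were seldom called by limma in simulated data, which held no difference by replicate number.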

Other observations

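In some genes a short transcript took much of the TPM and little of the counts, as in Kcnj16. For Scn3b a transcript of 385 bases held 61.0% of the TPM and 12.3% of the normalized counts, for Trpm4 one of 498 bases held 42.5% and 4.998%, and for Scn8a one of 1072 bases held 47.3% and 8.29%. In Cacna2d1 a transcript of 1272 bases (ENSMUST00000196750) held 51.1% of the TPM and 4.42% of the normalized counts. Levels per length of these genes therefore depend on whether such transcripts are counted.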
